A study of Arabidopsis thaliana with 12 samples.

Results

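CBL, APS4, AT3G58610 and AT3G23940 are 4 nuclear genes for plastid enzymes of sulfur and amino acid synthesis, among 689 Arabidopsis thaliana genes that had a probe of their own on the array. CBL (locus AT3G57050) and APS4 (AT5G43780) stood for the methionine and sulfate branch, and AT3G58610 and AT3G23940 for the branched-chain amino acid branch. Each was taken through its brightest probe annotated to exactly 1 gene, and each had 1 such probe. None of the 4 was also named on a probe shared with other genes. The choice was made with the group means and the differences between the CO2 groups already known, so those differences are given here as a description, without a test.

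The array held 3439 probes. Total RNA came from wild-type plants of the Columbia 0 ecotype in 2 groups of 6 samples: plants at normal CO2, labelled 0 d, and plants that ended their growth with 6 d at 1% (v/v) CO2. The question named in the labels is how transcript levels at high CO2 compare with those at normal CO2. No label gives the organ, the age of the plants or the number of plants behind a sample. CO2 and 6 d of growth cannot be told apart, and the spread between samples may be technical.

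ATP sulfurylase, the enzyme APS4 encodes, activates sulfate by joining it to ATP, the entry step of sulfate assimilation, which goes on through sulfite and sulfide to cysteine. Cystathionine beta-lyase, encoded by CBL, then works in the plastid on cystathionine, which carries the sulfur of cysteine, and releases homocysteine, the direct precursor of methionine. Ketol-acid reductoisomerase (AT3G58610) and dihydroxyacid dehydratase (AT3G23940) act one after the other in the plastid route to valine, leucine and isoleucine. As pathways, sulfate assimilation and amino acid synthesis in plastids draw on ATP, reductant and carbon skeletons, and high CO2 is known to suppress photorespiration in leaves.

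Before the values, the samples themselves need a description. In both groups the samples went in pairs by number (1 with 2, 3 with 4, 5 with 6) that looked like repeats, since all 12 samples correlated best with that partner (Pearson r across 3349 probes from 0.919 to 0.981). High-CO2 samples 5 and 6 were closer to normal-CO2 samples 1 to 4 (r from 0.901 to 0.917) than to high-CO2 samples 1 to 4 (0.837 to 0.866). Normal-CO2 samples 5 and 6 stood further from the rest of their own group, at 0.796 to 0.803 with normal-CO2 samples 1 to 4. With high-CO2 samples 1 to 4 they were at 0.726 to 0.781. The median deposited intensity of a sample was 0.34 to 0.39 in high-CO2 samples 1 to 4, 0.174 and 0.175 in high-CO2 samples 5 and 6, 0.16 to 0.166 in normal-CO2 samples 1 to 4, and 0.256 and 0.255 in normal-CO2 samples 5 and 6. The main results below are therefore given also by pair of samples and, where the scaling matters, on 3 scales: after quantile normalization, which gives all samples the same distribution, as deposited, and as a multiple of the sample's own median. Differences by pair set high-CO2 against normal-CO2 samples of the same numbers. The labels do not tie those numbers across the groups, and residuals of same-numbered samples correlated above 0.1 for 2 of 6 numbers, so these differences describe the samples and are not differences of matched replicates. Of 14 green tissue markers, 6 had a probe of their own, while none of the 7 root markers had one. All 6 lay above the floor (0.0398, to which lower values were raised before taking log2) in all 12 samples. Of the 3349 probes tested, 2349 did so too, and no organ is read from these markers.

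CBL was lower in every high-CO2 sample than in any normal-CO2 sample. Its normalized intensities at normal CO2 were 0.684, 0.672, 0.641, 1.01, 0.515 and 0.539 in samples 1 to 6. At high CO2 they were 0.211, 0.157, 0.281, 0.184, 0.417 and 0.406. The groups did not overlap, with normal-CO2 sample 4 the highest of all and high-CO2 samples 5 and 6 the nearest to the normal-CO2 range. Of the 3349 probes tested, 4.75% had all high-CO2 samples below all normal-CO2 samples, and as CBL was chosen on this contrast nothing is read from its place among them. Averaged, this gave 0.676 ± 0.176 for normal CO2 and 0.276 ± 0.113 for high CO2 (SD, n = 6 for both). The log2 difference, high minus normal, was -1.36 with a standard error of 0.27 over 12 samples and 0.39 over the 6 pair means.

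The size of the CBL difference depended on the pair and the scale, and its direction did not. By pair, the log2 difference after quantile normalization was -1.90 in samples 1 and 2, -1.82 in samples 3 and 4 and -0.36 in samples 5 and 6. The CBL transcript signal of samples 5 and 6 was thus 0.782 times its normal-CO2 level, against 0.269 and 0.284 times in the other pairs. With the values as deposited the 3 pairs lay close together, at -1.10, -0.96 and -0.90. As a multiple of the sample's own median, CBL lay between 2.24 and 5.72 at normal CO2 and between 0.672 and 1.81 at high CO2, again without overlap. The deposited values did not overlap either, being 0.531 to 0.917 and 0.229 to 0.431.

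**Figure D1:**
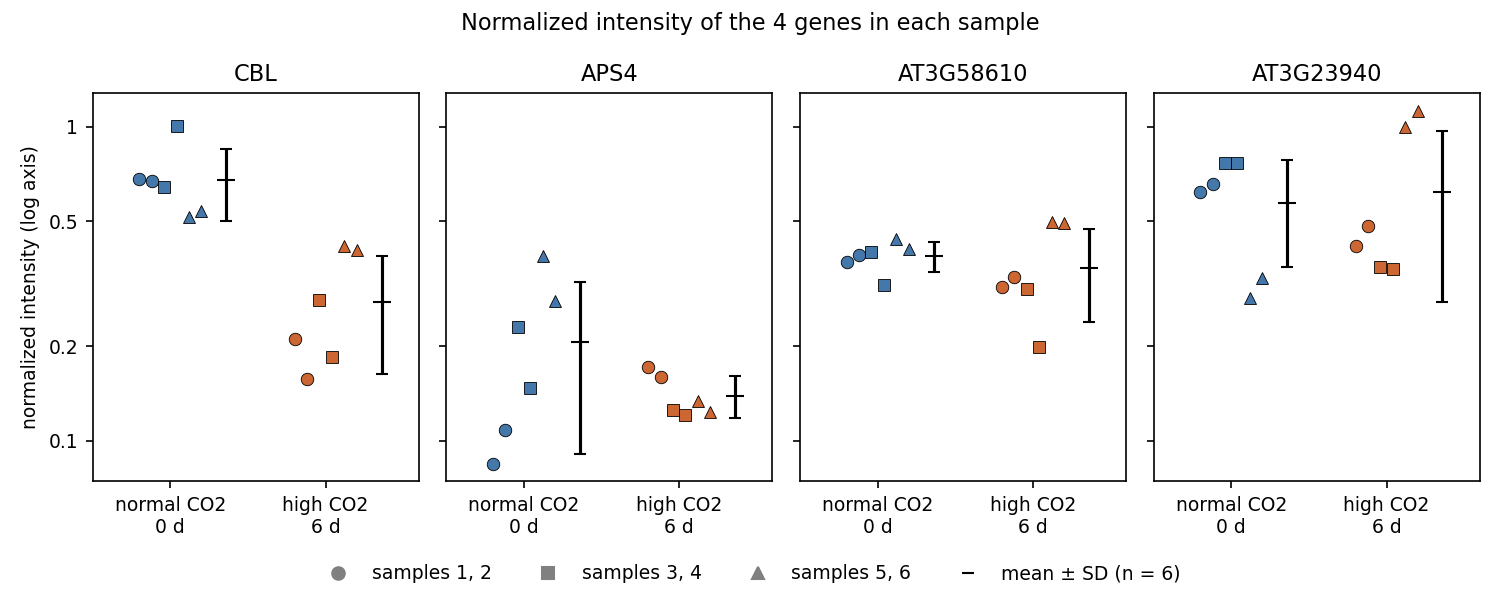
Normalized intensity (log axis) of each gene in the 6 samples of each group, with a marker shape for each pair of samples and bars for mean ± SD. Levels of different probes are not comparable, so each panel is read on its own. CBL has no overlap between groups (highest high-CO2 value 0.417, lowest normal-CO2 value 0.515), while the other genes overlap.

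APS4 overlapped between the groups. At normal CO2 its normalized intensities were 0.0847, 0.108, 0.230, 0.147, 0.387 and 0.280 in samples 1 to 6. At high CO2 they were 0.172, 0.160, 0.125, 0.121, 0.134 and 0.124. The high-CO2 samples lay in a narrow band inside the wide normal-CO2 range, in which samples 1 and 2 were the lowest and samples 5 and 6 the highest. The means were 0.139 ± 0.0214 and 0.206 ± 0.115 (high and normal CO2, SD, n = 6 each), and the log2 difference was -0.38 (standard error 0.34 over 12 samples and 0.47 over pair means).

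The 3 pairs gave APS4 differences of both signs. The log2 difference was 0.79 in samples 1 and 2, -0.58 in samples 3 and 4 and -1.35 in samples 5 and 6. With values as deposited these became 2.14, 0.98 and -2.13, and the mean over all samples turned from -0.38 to 0.33. In each group deposited APS4 differed between samples 1 to 4 and samples 5 and 6 in the same direction as the sample medians given above, but not among samples 1 to 4. It was at 0.216 to 0.244 in high-CO2 samples 1 to 4, 0.0839 and 0.0766 in high-CO2 samples 5 and 6, 0.0465 to 0.147 in normal-CO2 samples 1 to 4, and 0.420 and 0.294 in normal-CO2 samples 5 and 6. The part of the overall sample brightness in the APS4 values was not tested. As a multiple of the sample median, APS4 lay between 0.281 and 1.64 at normal CO2 and between 0.437 and 0.716 at high CO2.

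AT3G58610, the ketol-acid reductoisomerase gene, lay in a narrow range at normal CO2 (0.387 ± 0.0427, SD, n = 6), with normalized intensities of 0.371, 0.390, 0.401, 0.313, 0.439 and 0.408 in samples 1 to 6. At high CO2 it was at 0.309, 0.333, 0.304, 0.199, 0.497 and 0.494. High-CO2 samples 5 and 6 lay above all normal-CO2 samples, and high-CO2 samples 1, 3 and 4 below all of them. The mean at high CO2 was 0.356 ± 0.117 (SD, n = 6), and the log2 difference was -0.18 (standard error 0.22 over 12 samples and 0.34 over pair means). By pair it was -0.25, -0.52 and 0.23. As deposited the signs were the other way round, at 0.62, 0.63 and -0.29 by pair and 0.32 over all samples.

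AT3G23940, the dihydroxyacid dehydratase gene, gave nearly equal group means from samples that lay on opposite sides in samples 1 to 4 and in samples 5 and 6 after quantile normalization. Its normalized intensities at normal CO2 were 0.622, 0.660, 0.768, 0.769, 0.286 and 0.329 in samples 1 to 6. At high CO2 they were 0.417, 0.484, 0.358, 0.352, 0.999 and 1.12. Among samples 1 to 4 all high-CO2 values lay below all normal-CO2 values, as they did for 20.8% of the probes tested, and in samples 5 and 6 both high-CO2 values lay above both normal-CO2 values, as they did for 39% of the probes tested. Averages were 0.572 ± 0.214 for normal CO2 and 0.622 ± 0.345 for high CO2 (SD, n = 6 for both), and their log2 difference was 0.05 (standard error 0.37 over 12 samples and 0.53 over pair means). It turned negative without any single one of samples 5 and 6, at -0.12 and -0.15 without high-CO2 samples 5 and 6 and -0.13 and -0.09 without normal-CO2 samples 5 and 6.

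As deposited, the values of samples 1 to 4 overlapped, at 0.513 to 0.606 for high CO2 and 0.503 to 0.655 for normal CO2, and those of samples 5 and 6 did not, at 0.849 and 0.996 against 0.304 and 0.353.

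The AT3G23940 log2 difference was -0.51 in samples 1 and 2, -1.11 in samples 3 and 4 and 1.79 in samples 5 and 6. The last is a 3.45-fold higher level at high CO2, the largest difference of any pair among the 4 genes after quantile normalization apart from the CBL values of -1.90 and -1.82. With values as deposited the 3 differences were 0.12, -0.33 and 1.49, and after median scaling -0.92, -1.60 and 2.04. Partners of a pair differed little for this gene, by at most 0.21 on the log2 scale, while the pair means spanned 1.58 at high CO2 and 1.32 at normal CO2. For CBL the largest difference between partners was 0.65, for APS4 0.64 and for AT3G58610 0.61. The median over all probes tested and all pairs was 0.17.

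Taking samples 1 to 4 and samples 5 and 6 apart, the log2 difference changed sign for 3 of the 4 genes, as it did for 49.2% of the probes tested. In samples 1 to 4 the differences were -1.86 for CBL, 0.11 for APS4, -0.39 for AT3G58610 and -0.81 for AT3G23940. In samples 5 and 6 they were -0.36, -1.35, 0.23 and 1.79 in the same order. CBL alone of the 4 was lower at high CO2 in both sets. The scale mattered for the same 3 genes, whose overall sign turned with values as deposited (APS4, AT3G58610) or after median scaling (AT3G23940, -0.16). Over the probes tested, 31.7% turned with at least 1 of these scalings.

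**Figure D2:**
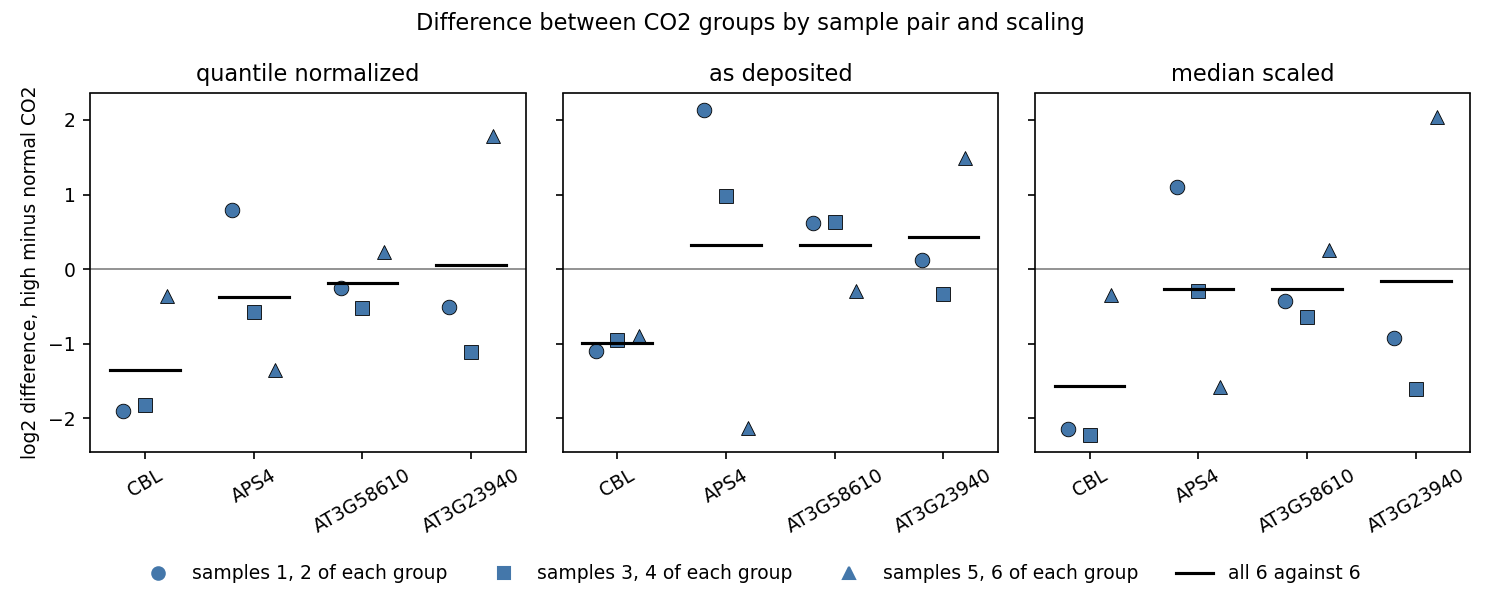
Log2 difference, high minus normal CO2, of each gene for each pair of sample numbers (markers) and for all 6 against 6 (bars), on 3 scales. CBL lies below 0 for every pair on every scale, and AT3G23940 spans from -1.11 to 1.79 after quantile normalization.

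The methionine and sulfate genes were then set against the branched-chain genes within each sample, on quantile-normalized values. A factor that multiplies a whole sample cancels in such a comparison, but quantile normalization is not a single factor per sample. The mean log2 value of CBL and APS4 minus that of AT3G58610 and AT3G23940 is a difference between probes, so its level has no meaning of its own and only its change between samples is read. At normal CO2 it was -0.996, -0.91, -0.53, -0.35, 0.33 and 0.08 in samples 1 to 6. At high CO2 it was -0.91, -1.34, -0.81, -0.82, -1.58 and -1.73. The groups overlapped, because normal-CO2 samples 1 and 2 lay within the high-CO2 range. The average was -0.40 ± 0.53 for normal CO2 and -1.20 ± 0.40 for high CO2 (SD, n = 6 for both). The change between groups was -0.80 on the log2 scale, so that the methionine and sulfate signal relative to the branched-chain signal was 0.573 times its normal-CO2 value. With values as deposited, and equally after median scaling, the change was -0.70. No test is given, because the genes were chosen on these differences.

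This change came mostly from different genes in different samples. In samples 1 to 4 it was -0.28, where CBL was lower at high CO2 but AT3G23940 and AT3G58610 were too. In samples 5 and 6 it was -1.86, where APS4 was lower and AT3G23940 higher. Of the 4 pairings of single genes, both with CBL kept the groups apart after quantile normalization. CBL was chosen on this contrast and kept the groups apart by itself, so nothing is read from that separation. The share of all probe pairings that would do so was not computed. CBL minus AT3G58610 lay between 0.23 and 1.69 at normal CO2 and between -1.08 and -0.11 at high CO2, a change of -1.18. CBL minus AT3G23940 lay between -0.26 and 0.85 at normal CO2 and between -1.62 and -0.35 at high CO2, a change of -1.41. As deposited or median scaled, the groups of this second pairing overlapped. Relative to AT3G23940, deposited CBL was slightly higher in high-CO2 sample 3 (0.431 against 0.526) than in normal-CO2 sample 3 (0.531 against 0.655). Both pairings with APS4 overlapped, with changes of -0.20 against AT3G58610 and -0.43 against AT3G23940. For APS4 minus AT3G23940 the change was 0.92 in samples 1 to 4 and -3.14 in samples 5 and 6. The patterns of CBL and APS4 over the samples differed. The root-mean-square difference between their centred log2 patterns over 12 samples was 0.97. Of 445 other genes, 243 were closer to CBL than APS4 was, and 337 were closer to APS4 than CBL was.

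**Figure D3:**
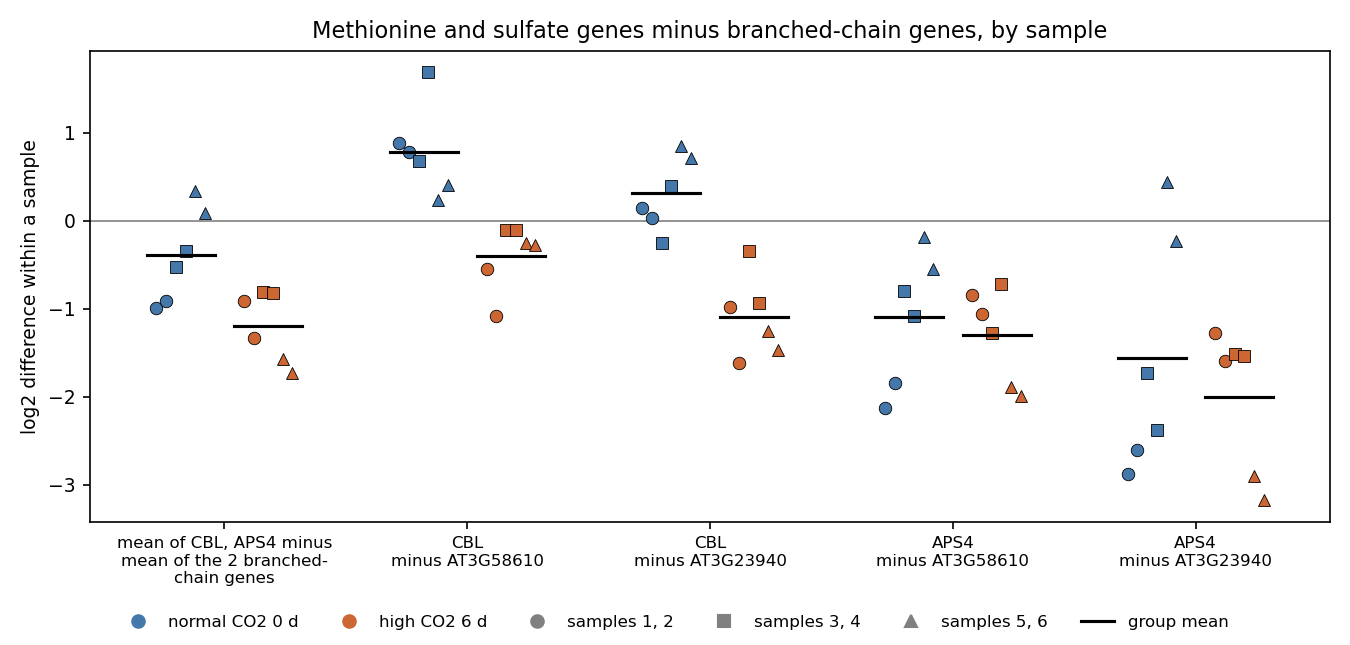
Log2 difference within each sample between methionine and sulfate genes and branched-chain genes, for the class means and for each pairing of single genes, in the 6 samples of each group (markers by pair, bars for group means). Values are after quantile normalization. Both pairings with CBL separate the groups on this scale, as CBL, chosen on this contrast, does by itself. The class means and both APS4 pairings overlap. As deposited, CBL minus AT3G23940 overlaps too.

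The rest of the pathways was sparsely measured. Of 158 loci in 11 lists covering sulfate uptake and reduction and the synthesis of cysteine, methionine and the other amino acids, 7 had a probe of their own, and 12 more were named only on probes shared with other genes. The 7 were the 4 genes above and 3 others, and the lists of sulfate uptake, cysteine and glutathione, aromatic amino acids, serine, and nitrite and ammonium assimilation had none. Over all 3349 probes 12.5% passed the limma test at a Benjamini-Hochberg adjusted p of 0.05, 5.52% as higher and 6.96% as lower at high CO2. Of the 3 other pathway genes 0 passed, and 0 had an unadjusted p under 0.05, as 30.2% of all probes did. No call is given for the 4 genes above, which were chosen on this contrast. With the pairs taken into account none of the 3349 probes passed in limma. The smallest limma adjusted p was 0.407 over pair means (408 probes at an unadjusted p under 0.05) and 0.0993 with pairs as a random block (511 probes). The median log2 difference of the 7, of which 4 were chosen on this contrast, was -0.20, and that of all probes tested -0.02.

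These 3 genes also differed between the sample sets. AT-HF, listed under histidine synthesis (synonym HISN4), had a log2 difference of 0.31 (standard error 0.78, limma adjusted p = 0.828). Its normalized intensities at normal CO2 were 0.0348, 0.0958, 0.168, 0.0813, 0.856 and 0.821 in samples 1 to 6, and at high CO2 0.491, 0.404, 0.389, 0.217, 0.0799 and 0.0984. It was higher at high CO2 by 2.08 in samples 1 to 4 and lower in samples 5 and 6, at -3.24 on the log2 scale, with normal-CO2 sample 1 at the floor. AT3G53580, from the aspartate, threonine and lysine list, had the opposite arrangement, with -1.46 in samples 1 to 4 and 1.304 in samples 5 and 6, which is the order seen for AT3G23940. Its overall difference was -0.54 (standard error 0.45, limma adjusted p = 0.45), with 2 high-CO2 samples at the floor. AT5G10920, from the arginine and proline list, differed by -0.20 (standard error 0.32, limma adjusted p = 0.708), with values of 0.340 to 1.14 for normal CO2 and of 0.331 to 0.876 for high CO2. Its log2 difference was small in samples 1 to 4, at 0.08, and was -0.77 in samples 5 and 6.

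For each of the 4 genes the 3 genes of most like pattern were looked up among 445 others with a probe of their own and no sample at the floor, by the root-mean-square difference of log2 values after each gene was centred on its own mean over the 12 samples. For CBL they were AT5G53620 (0.36), AT5G55220 (0.40) and AT1G79220 (0.41), against a median of 0.95 over the 445. Their log2 differences over all samples, -0.77, -1.02 and -0.96, share the sign of CBL, which the choice by likeness favours. In samples 5 and 6 they were 0.42, -0.07 and -0.69, so that AT5G53620 was higher at high CO2 there. AT1G79220 was lower in every high-CO2 sample than in any normal-CO2 sample, as CBL was, while AT5G53620 and AT5G55220 overlapped. For APS4 the nearest were AT2G33180, AT4G22370 and AT1G11800 (0.29, 0.29 and 0.30, median 0.75), which like APS4 were highest in normal-CO2 samples 5 and 6.

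For AT3G58610 the nearest were OTP70, annotated as an organelle transcript processing gene, AT4G13220 and AT1G28150 (0.25, 0.26 and 0.26, median 0.62). For AT3G23940 they were AT2G25870 (0.22), AT2G26340 (0.28) and FATB, a fatty acyl-ACP thioesterase gene (0.28), against a median of 0.80. Like AT3G23940, all of these lay below their own mean in normal-CO2 samples 5 and 6 and above it in high-CO2 samples 5 and 6. Among the 4 genes themselves, the closest patterns were those of AT3G58610 and AT3G23940 (0.55). Of 445 genes, 157 lay closer to AT3G58610 than AT3G23940 did, and 69 lay closer to AT3G23940 than AT3G58610 did. The most distant were those of APS4 and AT3G23940 (1.05). All values come from the same 12 samples and share their pair structure.

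**Figure D4:**
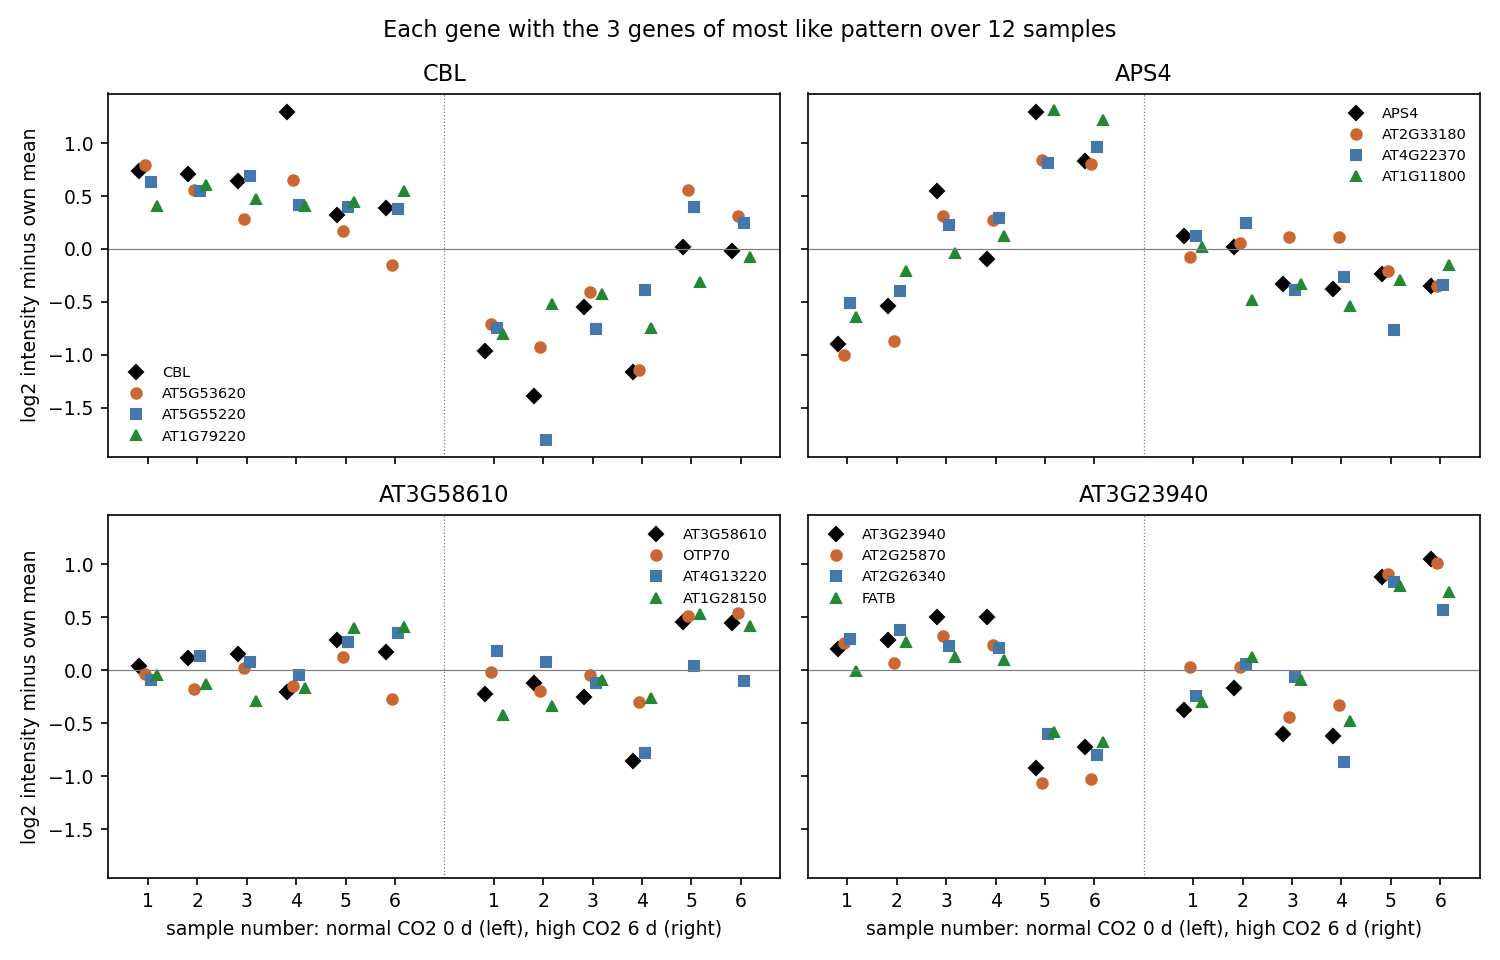
Log2 intensity minus the gene's own mean in each of the 12 samples, for each of the 4 genes (diamonds) and the 3 genes most like it. CBL separates the CO2 groups, and so does AT1G79220 among the genes nearest to it, while AT5G53620 and AT5G55220 overlap. AT3G23940 has its lowest values in normal-CO2 samples 5 and 6 and its highest in high-CO2 samples 5 and 6.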

How the data were processed

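The deposited table gives linear intensities for 3439 probes in 12 samples, judged from the values: none is negative, 133 to 398 probes per sample are listed at 0, and every sample has the same top value. How the authors made these intensities is not given in the sources used here. Precision is limited by the number of arrays. All columns were used, and groups and numbers came from the labels. Values were quantile normalized (limma 3.58.1, R 4.3.3) with deposited zeros kept at 0, raised to one floor, 0.0398, and log2 transformed. That floor is the largest, over samples, of percentile 1 of the positive values, and 12.5% of values lay at it. Linear means are before the floor. No value of the 4 genes lay at the floor. A fit with group only (lmFit, eBayes) covered 3349 probes, leaving out 90 at the floor in all samples. The procedure was tested on simulated data in which all samples were independent. That run cannot tell how the fit behaves with the likeness within pairs seen here.

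Probes were named from the platform annotation of 2016, in which 692 probes had 1 gene, 870 several and 1877 none given. Of the 692, 690 could be matched by gene identifier to RefSeq's TAIR10.1 genes, which served only for names. The text names the 4 genes, each pathway-list gene with a tested probe of its own, and the 3 genes most like each of the 4. The genes and lists were chosen with earlier results of these data known. Alternatives covered the scaling, the floor, the filter, blocks, pair means, single genes of each class and samples left out. Probe and gene sequences were not used here.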

Additional observations from a re-analysis of the deposited data

Results flagged for a closer look

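Of 24 groups of 6 values tested, 1 held a sample far from the others, where chance gives about 1 in 20. For AT3G53580 at normal CO2, sample 5 was at -4.04 on the log2 scale and the other samples lay between -3.14 and -2.61, so its gap to the nearest was 0.632 of the group's range, above Dixon's critical value for 6 samples. No group of values of CBL, APS4, AT3G58610 or AT3G23940 passed that limit. The likeness within pairs hides a pair that stands apart from this test, as samples 5 and 6 of AT3G23940 do.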

How the results depend on the processing

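The CBL difference stayed below 0 under each alternative run. It became -1.86 without samples 5 and 6 of both groups, and ran from -1.50 to -1.21 with each sample left out. Such single-sample runs kept the pair partner of the sample left out. Their ranges, here and below, therefore cannot show how far a whole pair moves a value. With values as deposited APS4 was at 0.33 and AT3G58610 at 0.32. Without samples 5 and 6, AT3G23940 was at -0.81, APS4 at 0.11 and the class difference at -0.28. With 1 gene per class the class difference was -1.41 for CBL minus AT3G23940 and -0.20 for APS4 minus AT3G58610. Leaving out single samples gave ranges of -0.60 to -0.16 for APS4, -0.29 to -0.03 for AT3G58610, -0.15 to 0.18 for AT3G23940 and -0.92 to -0.66 for the class difference. The cause of these changes was not tested. Of 24 values of the 4 genes and the class difference under the other settings that could move them, 17 stayed within 1 SD of the spread between samples and 5 turned sign. The 17 include turned signs, for APS4 without samples 5 and 6 (0.11) and for AT3G23940 after median scaling (-0.16). The replicate block, pair means and each sample's own floor leave these differences unchanged by construction. The 418 probes passing over 12 samples became 0 over pair means in limma (408 at an unadjusted p under 0.05) and 0 with pairs as a random block (511), 1270 without samples 5 and 6, and between 230 and 580 with each sample left out. The split of 185 higher and 233 lower became 326 and 65 as deposited and 85 and 246 after median scaling. The replicate number as a block gave 460. Same-numbered samples of the 2 groups had residual correlations from -0.08 to 0.16, above 0.1 for 2 of 6 numbers, so the numbers were not taken to pair the samples. Each gene had 1 probe, so averaging probes gave nothing to run.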
